A study of Danio rerio with 6 samples.

Results

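Of the 8363 assembled long non-coding RNAs (lncRNAs) that the authors listed for zebrafish ZF4 cells, 90 carried the name of a membrane transporter or pump gene and are described here. They were chosen by gene name alone: the gene name listed for the transcript had to begin with the symbol of a solute carrier (slc, slco), an ABC transporter (abca to abcg), an ATPase (atp followed by a digit) or an aquaporin (aqp), in lower case. Another 3114 lncRNAs carried the name of some other gene and serve as the comparison, and 5159 carried none. The paper presents the 8363 as presumed new lncRNAs, left after transcripts matching known transcripts or known lncRNAs were set aside. Known lncRNAs of these cells are therefore not covered, and all lncRNAs below means the 8363. ZF4 is a fibroblast-like line grown from zebrafish embryos. RNA came from 6 samples of cells in the same medium, 3 control samples at 28°C and 3 cold acclimated samples held at 18°C for 30 days. The labels call them replicates and do not say whether each was a separate culture. How long the controls were cultured is not given, so temperature and time in culture cannot be told apart. The table holds lncRNAs only, so the fibroblast identity of the cells was not checked against marker mRNAs.

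Transporters move what cannot cross a lipid membrane unaided. Solute carriers use the gradients of sodium, protons or the solute itself, ABC transporters and P-type ATPases spend ATP to move lipids, drugs, metals and ions, V-type ATPases acidify organelles, and F-type ATPases make ATP in mitochondria. Pump and carrier activity slows in the cold, which makes ion balance a known problem for ectotherm cells at low temperature. An lncRNA named after such a gene was assembled as a transcript at or near it. The authors' classes included possible new isoforms, exonic overlaps and transcripts within introns of known genes. Whether a given lncRNA is independent of the named gene's own transcripts was not tested. Its level is not taken as that of the transporter mRNA, which was not analysed here. The table gives neither the strand nor whether the lncRNA lies in an intron or exon.

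Levels are FPKM, the fragments per kilobase of transcript per 1000000 mapped fragments, which takes out transcript length. The authors deposited 1 mean per group, so the value in each sample is not known and no spread between samples could be computed. No difference below was tested here or checked against replicates, and the authors' own tests were not used. Differences are given as the log2 ratio of the 18°C mean over the 28°C mean after adding 0.1 FPKM to both means, which understates the change of low transcripts. Intervals are 95% intervals over transcripts, and cover no variation between samples. The table does not give the sequencing depth. The paper gives a count of clean reads and the share mapped, but none for each sample.

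The 90 lncRNAs had 85 loci and named 67 genes, of which 49 were solute carriers, 9 ABC transporters and 9 ATPases. By transcripts, 65 lay at solute carrier genes, 11 at ABC transporter genes and 14 at ATPase genes. The largest class was that of inorganic ion exchangers and cotransporters, with 21 lncRNAs at 16 genes. None of the 90 carried an aquaporin name, a mitochondrial ATP synthase (F-type) name or a vesicular amine, vitamin or nucleoside carrier name. Known lncRNAs at such genes are not listed and so were not counted. The names were set against the protein-coding genes of the RefSeq annotation of GRCz12tu, a later build used here for names only. Of 613 transporter and pump genes there, 64 had an lncRNA among the 8363, which is 10.4% (Wilson, 8.26% to 13.1%). No such share is given for other genes, because only 1585 of their 2190 names matched a protein-coding RefSeq symbol. For inorganic ion exchangers and cotransporters it was 16 of 65 genes, or 24.6% (15.8% to 36.3%). For SLC25 mitochondrial carriers it was 3 of 60, or 5.00% (1.71% to 13.7%), and for aquaporins 0 of 15, which allows a share of up to 20%. Gene length, which differs among these genes, was not taken into account, and the difference between shares was not tested.

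All 90 lay on placed chromosomes, on 22 of the 25, with none on chromosomes 16, 19 and 22. Chromosome 14 held 11 and chromosome 23 held 9, or 7.75% and 9.89% of the lncRNAs with a named gene there. Those 2 counts rest largely on 4 genes with several transcripts, atp6v0e1 and slc44a1b on chromosome 14, and slco4a1 and slc2a12 on chromosome 23.

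Most of the lncRNAs were short and unspliced. A single exon was listed for 58 of 90, or 64.4% (Wilson, 54.2% to 73.6%), against 60.0% (58.2% to 61.7%) at other named genes. Of the rest, 18 had 2 exons, 5 had 3, 3 had 4 and 6 had 5. The median length was 474.5 nt (383 to 612), against 504 nt (485 to 530) at other named genes, so that exon number and length both overlapped with the comparison. The range ran from 201 nt at atp2b2 and slc4a10b to 7071 nt for MSTRG.17169.1, an unspliced transcript at the sodium-phosphate cotransporter gene slc34a2b (GRCz10 chromosome 23, 1077913 to 1084983).

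The spliced transcripts spanned a median of 3.35 kb, against 6.73 kb at other named genes, and 9 of the 90 spanned over 10 kb. MSTRG.6469.1 at slc7a11, the cystine-glutamate exchanger, joined 5 exons of 1356 nt in all across 171 kb of chromosome 14. MSTRG.2369.1 at slc6a1b, a GABA transporter gene, joined 5 exons of 1233 nt across 106 kb of chromosome 11. In contrast, MSTRG.15756.1 at the phosphate carrier gene slc34a1b packed 5 exons and 324 nt into 1.13 kb. The 202 nt of MSTRG.20977.1 at abcc6b.1 lay in 2 exons spread over 63.0 kb. Genes whose symbol ends in a copy number (abcc6b.1, atp1a1a.1, slc12a10.2, slc12a10.3) belong to families with near copies, so reads there may be divided among copies and the values are uncertain.

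In levels, the transporter lncRNAs were mostly low. Their median was 0.917 FPKM (0.811 to 1.16) at 28°C, below the 1.17 FPKM (1.13 to 1.21) of other named genes. At 18°C it was 0.821 FPKM, against 0.802 FPKM at other named genes. None of the 90 reached 10 FPKM in either group, while 127 of the 3114 others (4.08%) did at 28°C. At 28°C that share was 2.99% over all lncRNAs and 0.80% for unspliced lncRNAs at other named genes. In a set of 90, shares this low amount to few lncRNAs. The difference in levels was not tested, and 3 of the 90 exceeded 5 FPKM in a group.

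The 5 with the highest mean over both groups were as follows. MSTRG.18647.1, with 3 exons at abca4a (chromosome 24, 28537861 to 28547518), stood at 9.78 FPKM at 28°C and 9.35 FPKM at 18°C. It was the most abundant of the 90 and ranked 240 among all 8363. ABCA4 is a lipid flippase of photoreceptors that clears retinoids. MSTRG.25.1, with 1 exon at the sodium-potassium pump gene atp1a1a.1 (chromosome 1, 1553958 to 1554317), had 5.21 FPKM at 28°C and 8.53 FPKM at 18°C. MSTRG.3660.1 at slc4a1b, a gene of the band 3 anion exchanger family, had 4.42 and 3.29 FPKM. MSTRG.17287.1 at slco4a1, an organic anion carrier gene, had 1.83 and 5.69 FPKM, and MSTRG.6691.1 at atp6v0e1 had 3.60 and 3.12 FPKM. Of these, MSTRG.17287.1 alone differed by more than 2-fold as deposited, and MSTRG.25.1 did as well when scaled.

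**Figure D1:**
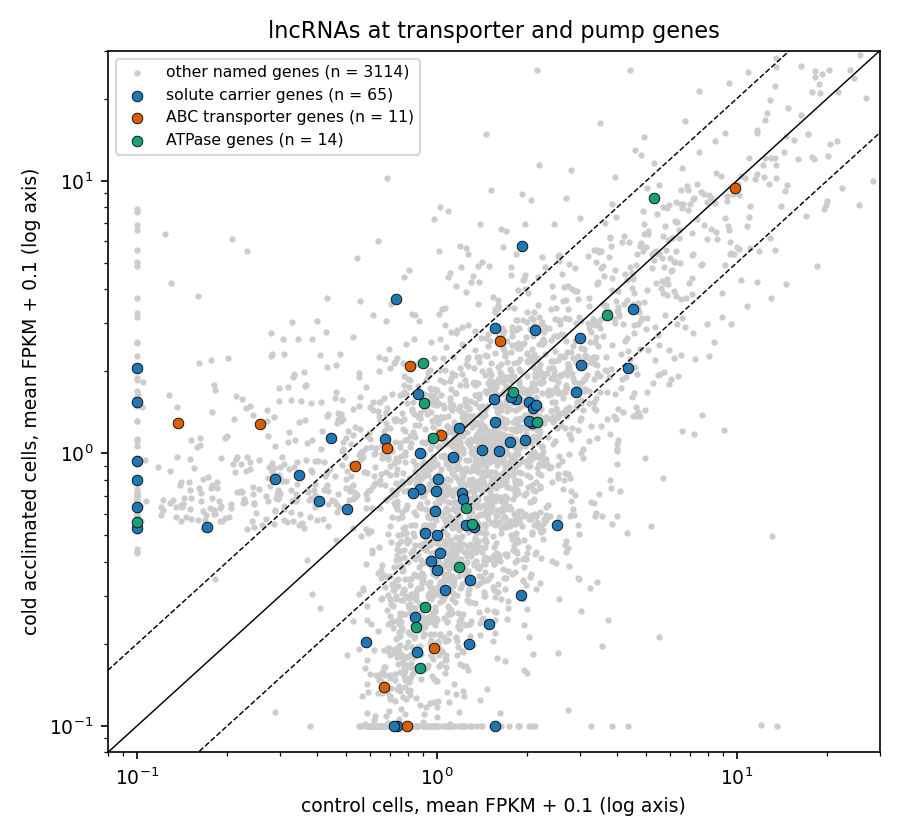
Mean FPKM plus 0.1 of each lncRNA at 28°C (control, x, log axis) against 18°C (cold acclimated, y, log axis), for 65 solute carrier, 11 ABC transporter and 14 ATPase lncRNAs, with the 3114 lncRNAs at other named genes in grey, 55 of which lie beyond the axes. The solid line marks equal means and the dashed lines 2-fold, and points at 0.1 are listed at 0. Most coloured points lie below the solid line, and none exceeds 10 FPKM.

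Cold acclimated cells had the lower mean for 57 of the 90 lncRNAs (63.3%) and the higher mean for 33. At other named genes the mean was lower for 66.2%, and over all lncRNAs for 66.7%. A filter of 0.5 FPKM in either group kept 86. Past 2-fold at 18°C were 14 with a higher and 26 with a lower mean, and 46 lay within 2-fold. That is 16.3% higher (Wilson, 9.95% to 25.5%) and 30.2% lower (21.5% to 40.6%). Of these calls, 5 higher and 4 lower ones had a listed 0 in the other group. Such calls follow from the filter, since a listed 0 beside a mean above 0.5 FPKM always passes 2-fold. Over all lncRNAs the shares were 13.3% higher and 39.4% lower, and over other named genes 14.0% and 37.3%, so both member shares lie near the background. The median log2 ratio was -0.43 (-0.69 to -0.18) over the 86, against -0.59 (-0.64 to -0.52) at other named genes, and these intervals overlap.

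The direction depends on the scale. Over all lncRNAs above 0.5 FPKM in a group the median log2 ratio was -0.63, and relative to that shift the median of the 86 was 0.20. With the groups scaled to a median of 0 over all lncRNAs, 24 were more than 2-fold higher and 18 more than 2-fold lower, against 23.5% and 23.9% over all. All 14 that were higher as deposited were also higher when scaled, and the 18 that were lower when scaled were among the 26. A further 19 of the 90 had a log2 ratio between the shift and 0, so their sign turns with the scaling. Of the calls, 18 turn with the scaling, and these are named below.

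The cold response was also set out by exon number, with no test between the classes. Among lncRNAs with 1 exon, 9 of 54 were higher and 20 lower, with a median log2 ratio of -0.52 (-1.0 to -0.22), against -0.85 for unspliced lncRNAs at other named genes. With 2 or more exons, 5 of 32 were higher and 6 lower, with a median of -0.21 (-0.69 to 0.67), against -0.25, and these member intervals overlap. Those with exactly 2 exons had a median of -0.52, as did those with 1 exon. Of those with 2 exons, 11.1% were higher and 22.2% lower, against 12.3% and 30.7% at other named genes. With 3 or more exons, 3 of 14 were higher and 2 lower, with a median of 0.17, against 0.09. The 3 higher ones were MSTRG.17287.1 and MSTRG.17287.2 at slco4a1 and MSTRG.17760.2 at slc2a12, and so not 3 separate loci. Scarce lncRNAs passed 2-fold more often than abundant ones in both sets. Of the 35 lncRNAs with a mean over both groups below 0.75 FPKM, 28 passed 2-fold, against 3 of the 22 at 1.5 FPKM or above. At other named genes it was 789 of 1011 and 295 of 965. A low mean combined with the filter favours large ratios in either direction.

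**Figure D2:**
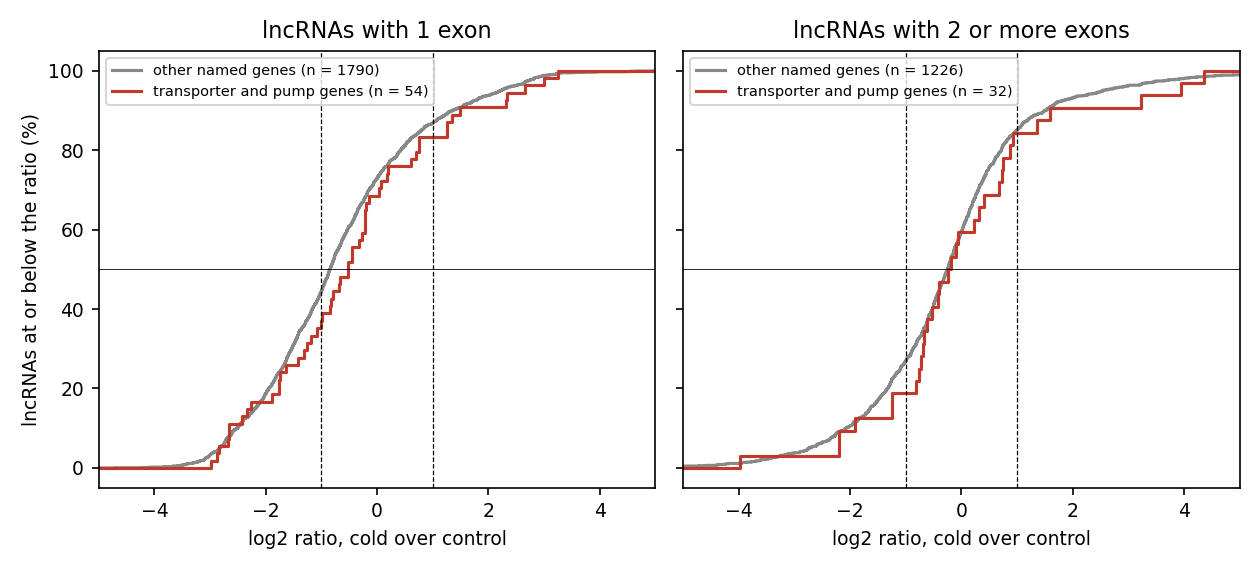
Cumulative share of lncRNAs (y, %) at or below each log2 ratio of 18°C over 28°C (x), for lncRNAs that passed the 0.5 FPKM filter with 1 exon (left: 54 at transporter and pump genes in red, 1790 at other named genes in grey) or 2 or more exons (right: 32 and 1226). Dashed lines mark 2-fold and the horizontal line the median. The medians are -0.52 against -0.85 on the left and -0.21 against -0.25 on the right, and scaling adds 0.63 to every value.

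At ABC transporter genes, cold acclimated cells had the higher mean for 7 of 11 lncRNAs. Past 2-fold were 3 higher and 3 lower, and 6 and 3 when scaled. For this and each class below, the shares over all lncRNAs were 13.3% higher and 39.4% lower, and 23.5% and 23.9% when scaled. The classes are small, and no class was tested against these shares. The median log2 ratio was 0.61 (-2.33 to 2.32) over the 11. Of the 3 higher lncRNAs, those at abcc6a and abca3b were scarce at 28°C. MSTRG.25949.1 at abcc6a (chromosome 6, 10798217 to 10798740), whose human counterpart limits ectopic mineralisation, went from 0.0367 FPKM at 28°C to 1.20 FPKM at 18°C (log2 ratio 3.24). This was the largest ratio among those above 0 in both groups. MSTRG.20276.1 at abca3b, related to the lung surfactant lipid transporter of mammals, went from 0.157 to 1.18 FPKM (log2 ratio 2.32). MSTRG.4474.1 at abcc2, an exporter of conjugated organic anions, went from 0.714 to 1.99 FPKM (log2 ratio 1.36). Its relative abcc3, also an organic anion exporter, lay on the opposite side, where MSTRG.3400.1 went from 0.569 to 0.0385 FPKM (log2 ratio -2.27).

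The other 2 lower ABC lncRNAs were also short and unspliced. MSTRG.30809.1, of 235 nt at abcb11a, the bile salt export pump, had 0.694 FPKM at 28°C and was listed at 0 at 18°C. MSTRG.18646.1, of 213 nt at abca4a, went from 0.875 to 0.0936 FPKM (log2 ratio -2.33). It lies 4.35 kb from MSTRG.18647.1, the abundant spliced lncRNA at the same gene, whose log2 ratio was -0.06. Short and long transcripts at abca4a thus had different ratios. Within 2-fold lay MSTRG.20275.1 at abca3b (0.584 and 0.945 FPKM), and the lncRNAs at abcc10 (0.433 and 0.801 FPKM), abcc6b.1 (1.53 and 2.49 FPKM) and abcd4 (0.934 and 1.07 FPKM). All 4 had the higher mean at 18°C, and the first 3 passed 2-fold when scaled.

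At P-type ATPase genes, 1 of 8 lncRNAs above 0.5 FPKM was more than 2-fold higher and 4 more than 2-fold lower, and 2 and 3 when scaled. The median log2 ratio was -1.12 (-2.42 to 1.25), an interval that overlaps with that of the ABC transporter lncRNAs. Calcium pumps of the plasma membrane gave both directions. MSTRG.19484.1 at atp2b1b went from 0.801 to 2.04 FPKM (log2 ratio 1.25), while MSTRG.2374.1 at atp2b2 went from 0.751 to 0.131 FPKM (log2 ratio -1.88). At the copper pump gene atp7a, which supplies copper enzymes and exports the metal, MSTRG.6032.1 went from 1.09 to 0.283 FPKM (log2 ratio -1.63). MSTRG.3106.1 at atp13a3, an endosomal pump gene, went from 1.21 to 0.452 FPKM, and its log2 ratio of -1.25 came to -0.62 when scaled and so no longer passed 2-fold. The sodium-potassium pump lncRNA at atp1a1a.1 had a log2 ratio of 0.70, and 1.33 when scaled, which passes 2-fold.

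Phospholipid flippases of the atp8b genes keep the lipids of the membrane leaflets apart. MSTRG.19718.1 at atp8b4 went from 0.777 to 0.0634 FPKM (log2 ratio -2.42), and its longer neighbour MSTRG.19717.1, which lies 2.60 kb away, from 1.16 to 0.530 FPKM. The latter, at a log2 ratio of -0.995, lay just within 2-fold, and MSTRG.12612.1 at slc44a5a, at -1.0, just past it. MSTRG.24251.1 at atp8b5a had 2.05 and 1.21 FPKM. These 3 flippase lncRNAs had lower means at 18°C, and the other one, MSTRG.15084.1 at atp8b1, was listed at 0 at 28°C and at 0.460 FPKM at 18°C, below the filter.

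All V-type ATPase lncRNAs came from a single gene, atp6v0e1, which encodes a small subunit of the membrane part of the proton pump. Its 5 transcripts had 5 loci within 29.1 kb of chromosome 14. MSTRG.6691.1 had 3.60 and 3.12 FPKM, and MSTRG.6692.1, which begins 0.29 kb beyond it, had 1.70 and 1.58 FPKM. Only MSTRG.6693.1 passed 2-fold, from 0.811 FPKM at 28°C to 0.174 FPKM at 18°C (log2 ratio -1.74). MSTRG.6688.1 lay on the other side at 0.805 and 1.43 FPKM, with a log2 ratio of 0.76, which passes 2-fold when scaled, at 1.39. MSTRG.6690.1 had 0.870 and 1.04 FPKM. As deposited, the 2 transcripts with the lowest coordinates had higher means at 18°C and the other 3 lower ones, and when scaled MSTRG.6693.1 alone was lower. Summed over the 5 they came to 7.78 and 7.34 FPKM.

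**Figure D3:**
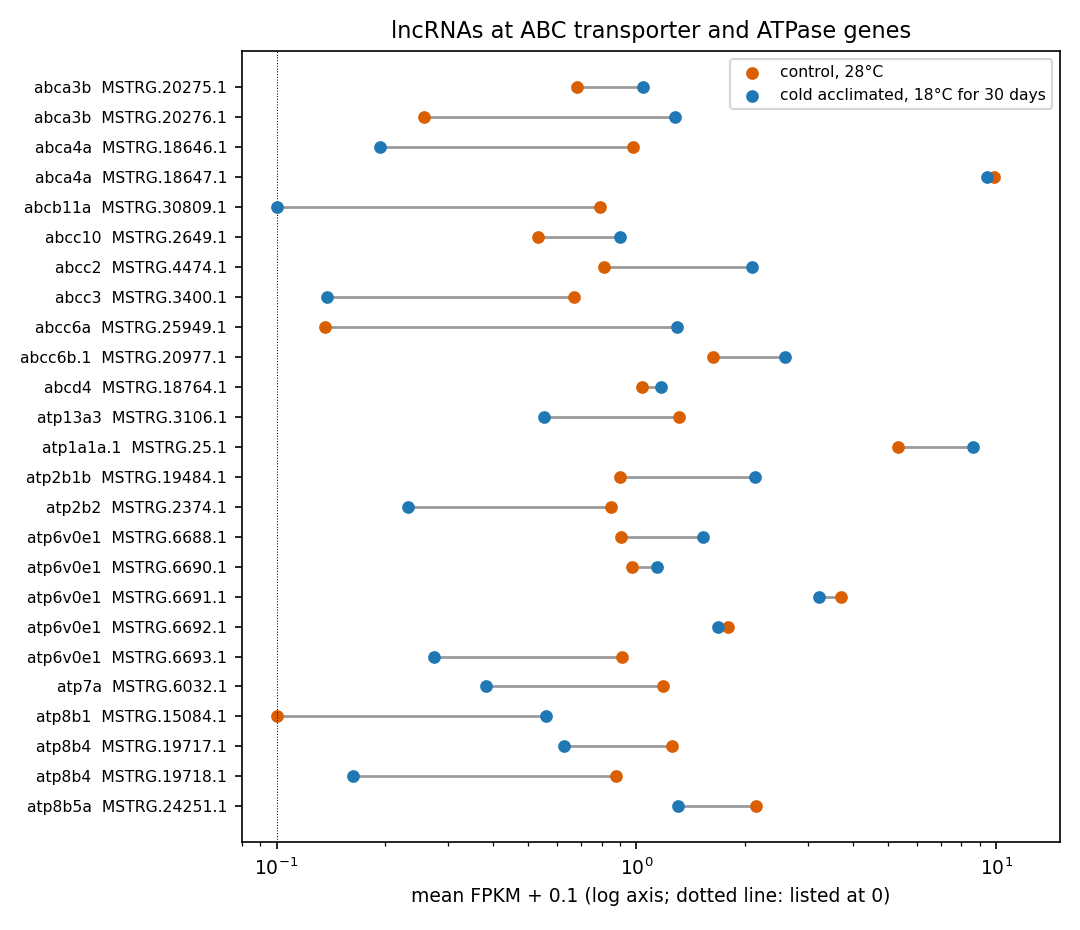
Mean FPKM plus 0.1 (x, log axis) of each of the 25 lncRNAs at ABC transporter and ATPase genes, with control cells in orange and cold acclimated cells in blue joined by a line. The dotted line marks a listed 0. The blue point lies right of the orange one for 7 of 11 ABC transporter lncRNAs and 5 of 14 ATPase lncRNAs.

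Inorganic ion exchangers and cotransporters set the pH, chloride and calcium of the cell. Of the 19 lncRNAs at these genes above 0.5 FPKM, 3 were more than 2-fold higher and 8 more than 2-fold lower at 18°C, and 4 and 5 when scaled. As deposited that is 15.8% higher and 42.1% lower, near the 13.3% and 39.4% over all lncRNAs. The median log2 ratio was -0.67 (-1.76 to 0.20).

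The sodium-calcium exchangers of the slc8 family, which extrude calcium, held 6 lncRNAs at 4 genes, and 5 of the 6 passed 2-fold. Over all lncRNAs above the filter, 4272 of 8108 did. Both lncRNAs at slc8a3 were lower. MSTRG.5219.1 (chromosome 13, 36160954 to 36162508) went from 1.39 to 0.137 FPKM (log2 ratio -2.66), and MSTRG.5218.1, which lies 9.41 kb away, from 0.746 to 0.150 FPKM (log2 ratio -1.76). At slc8a2b, MSTRG.7628.1 had 0.635 FPKM at 28°C and was listed at 0 at 18°C, and MSTRG.7629.1 had 0.778 and 0.641 FPKM. The reverse held at slc8a1b and slc8a4a, where MSTRG.9551.1 and MSTRG.15609.1 were listed at 0 at 28°C and at 0.698 and 0.533 FPKM at 18°C. Of the 3 listed at 0, the longest is 211 nt. Their calls follow from the filter, since a listed 0 beside a mean above 0.5 FPKM always passes 2-fold. The family thus gave 2 higher and 3 lower lncRNAs.

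Chloride cotransporters of the slc12 family had lower means at 18°C in 5 of 7 lncRNAs, a share near that over all lncRNAs. At slc12a10.3, a sodium-chloride cotransporter gene of fish, MSTRG.27217.1 with 4 exons went from 2.42 to 0.448 FPKM (log2 ratio -2.20), and MSTRG.27218.1 with 1 exon from 1.23 to 0.436 FPKM (log2 ratio -1.31). The neighbouring copy slc12a10.2 had MSTRG.27214.1 at 0.480 and 0.103 FPKM, under the filter. At slc12a5a, one of 2 copies of the potassium-chloride cotransporter KCC2, MSTRG.26949.1 had 0.859 and 0.303 FPKM and MSTRG.26953.1 had 0.902 and 0.274 FPKM. These lie 118 kb apart, and their log2 ratios were -1.25 and -1.42. The other copy, slc12a5b, pointed the other way, with MSTRG.29461.1 at 0.0715 and 0.435 FPKM, also under the filter. MSTRG.18888.1 at slc12a7b went from 0.190 to 0.709 FPKM (log2 ratio 1.48). When scaled, only MSTRG.27217.1 of the 4 lower slc12 calls still passed 2-fold.

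Bicarbonate carriers of the slc4 family were mostly within 2-fold. The exception was MSTRG.26566.1 at slc4a8, a sodium-driven chloride-bicarbonate exchanger, from 0.966 to 0.216 FPKM (log2 ratio -1.76). At slc4a10b the 2 lncRNAs had log2 ratios of 0.20 and -0.67, and at slc4a4a MSTRG.24895.1 had one of -0.68. The lncRNAs at slc9a2, a sodium-proton exchanger, and slc24a2, a potassium-dependent sodium-calcium exchanger, had log2 ratios of -0.22 and -0.33. MSTRG.22022.1 at slc26a4, the anion exchanger pendrin, had 0.571 and 1.03 FPKM, and its log2 ratio of 0.75 passed 2-fold when scaled, at 1.39.

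**Figure D4:**
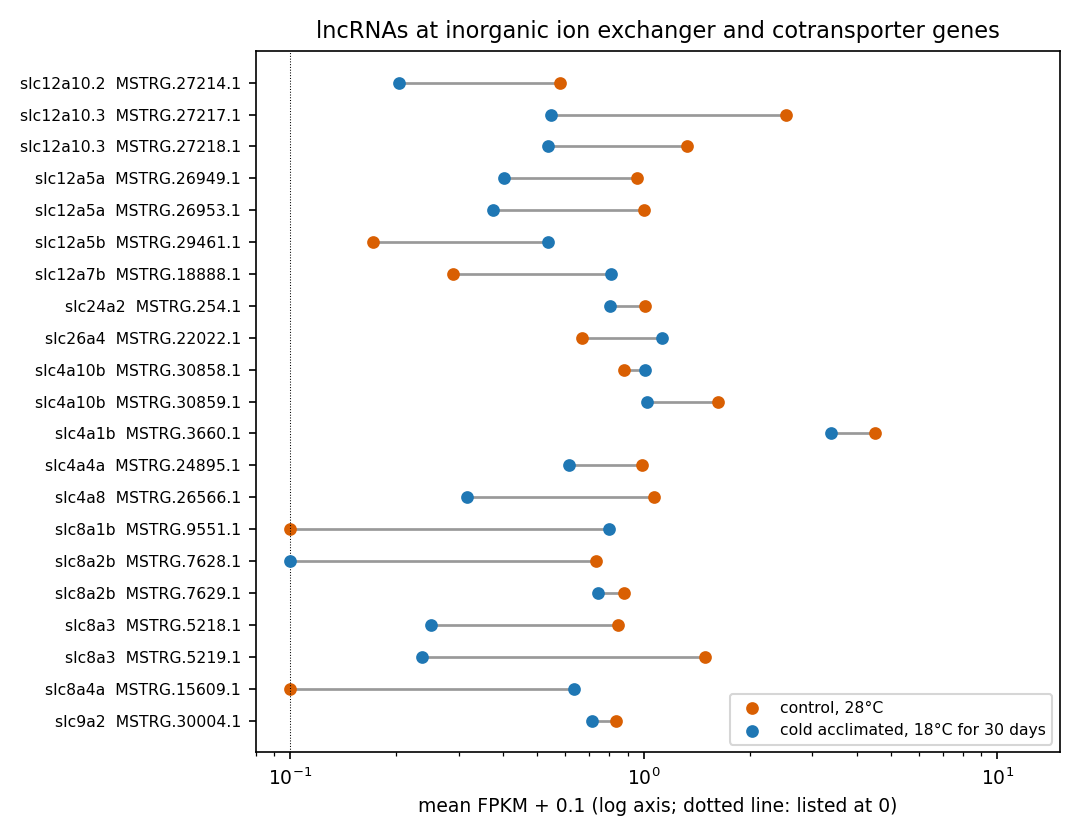
Mean FPKM plus 0.1 (x, log axis) of each of the 21 lncRNAs at inorganic ion exchanger and cotransporter genes, with control cells in orange and cold acclimated cells in blue joined by a line. The dotted line marks a listed 0. The blue point lies left of the orange one for 15 of 21.

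The SLC6 family carries neurotransmitters, amino acids and creatine with sodium and chloride. Among its 6 lncRNAs, 3 were more than 2-fold lower and none higher, and 2 were lower and 1 higher when scaled. Over all lncRNAs, 39.4% were lower and 13.3% higher as deposited. MSTRG.28882.1, with 3 exons and 1608 nt across 56.2 kb at slc6a8 (chromosome 8, 8991622 to 9047839), the creatine transporter, had 1.47 FPKM at 28°C and was listed at 0 at 18°C. It is the only one of the 90 for which the study lists a qRT-PCR primer pair, printed here in lower case and 5′ to 3′ because it fixes which sequence was assayed:
MSTRG.28882.1 forward: cacactctatctctcgtcctct
MSTRG.28882.1 reverse: ggcgaccttaagcgttatct
The primers are 22 and 20 nt long, each with 50% G and C. The authors assayed this lncRNA by qRT-PCR in 3 replicates. They report that its level after 30 days of cold matched the direction in their sequencing. In their time course it first rose in the cold, and it stayed lower after the cells were returned to 28°C.

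At slc6a15, a carrier of branched-chain amino acids and proline, both lncRNAs were lower. MSTRG.10557.1, with 1 exon of 1719 nt, went from 4.25 to 1.96 FPKM (log2 ratio -1.08, and -0.45 when scaled). MSTRG.10556.1, whose interval contains it, went from 1.19 to 0.244 FPKM (log2 ratio -1.91), so reads may be divided between them. MSTRG.2369.1 at the GABA transporter gene slc6a1b, with 2.02 and 2.73 FPKM, was the only one of the 6 with the higher mean at 18°C as deposited, and passed 2-fold when scaled, at 1.05. The lncRNAs at slc6a1l (1.47 and 1.20 FPKM) and slc6a16a (1.32 and 0.933 FPKM) lay within 2-fold.

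Other amino acid carriers held 6 lncRNAs. As deposited, MSTRG.30837.1 at slc38a11 alone passed 2-fold, from 1.15 to 0.446 FPKM, and its log2 ratio of -1.19 came to -0.56 when scaled. MSTRG.6469.1 at slc7a11 had 1.98 and 1.19 FPKM, and MSTRG.18041.1 at slc1a7b, a glutamate transporter gene, 2.93 and 2.01 FPKM. MSTRG.27980.3 at slc7a9, which takes up cystine and basic amino acids, had 1.46 and 2.78 FPKM (log2 ratio 0.88), and when scaled it alone of the 6 passed 2-fold, at 1.52. Means at slc7a1 and slc38a7 were 1.09 and 1.14 FPKM and 0.812 and 0.412 FPKM.

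Among organic ion carriers, the slco genes, which carry steroid conjugates and thyroid hormones, gave the widest differences. MSTRG.10753.1 at slco3a1 (chromosome 18, 25160504 to 25161049) went from 1.18 to 0.0996 FPKM. Its log2 ratio of -2.68 was the lowest among those above 0 in both groups. At slco4a1 the locus MSTRG.17287 was higher, as described below, while MSTRG.17279.1, which lies 197 kb away, had 1.74 and 1.48 FPKM. MSTRG.12307.1 at slc22a23 had 1.11 and 0.614 FPKM.

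Mitochondrial carriers of the SLC25 family gave 2 higher and 1 lower among 4, and 2 and 0 when scaled. Over all lncRNAs, 13.3% were higher and 39.4% lower as deposited. MSTRG.9843.1 at slc25a21 (chromosome 17, 38277620 to 38278352), a carrier of oxodicarboxylates, went from 0.632 to 3.59 FPKM (log2 ratio 2.33). MSTRG.9841.1 at the same gene, 64.6 kb away, went from 0.926 to 0.333 FPKM (log2 ratio -1.25). As deposited, no other gene had an lncRNA past 2-fold in each direction. When scaled, MSTRG.9841.1 came to -0.61 and no longer passed, while atp6v0e1 and slc44a1b had calls in both directions. MSTRG.339.1 at slc25a4, an ADP/ATP carrier, went from 0.248 to 0.735 FPKM (log2 ratio 1.26), and MSTRG.17720.1 at slc25a33, a pyrimidine nucleotide carrier, had 2.00 and 1.37 FPKM.

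All 3 metal carrier lncRNAs had lower means at 18°C, though the sign at slc30a4 turns when scaled. The 2 past 2-fold belonged to magnesium carriers, and the call at slc41a1, with a listed 0, follows from the filter. MSTRG.19638.1 at slc41a2a (chromosome 25, 28356943 to 28357274) went from 1.80 to 0.202 FPKM (log2 ratio -2.66), and MSTRG.3175.1 at slc41a1 had 0.619 FPKM at 28°C and was listed at 0 at 18°C. MSTRG.10351.1 at the zinc carrier gene slc30a4 had 1.93 and 1.44 FPKM (log2 ratio -0.40), and 0.24 when scaled.

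The remaining classes were small. At carboxylate carriers, MSTRG.15926.1 at the citrate transporter gene slc13a5a went from 0.345 to 1.04 FPKM (log2 ratio 1.35), while MSTRG.15925.1, which lies 0.26 kb away, had 1.03 and 0.869 FPKM. MSTRG.29328.1 at slc13a3 was listed at 0 at 28°C and at 0.432 FPKM at 18°C, and MSTRG.3577.1 at slc16a9b had 2.81 and 1.58 FPKM. The 2 phosphate carrier lncRNAs lay within 2-fold, with 1.12 and 0.581 FPKM at slc34a2b and 2.90 and 2.54 FPKM at slc34a1b. In the SLC35 family, MSTRG.7279.1 at slc35f2l was listed at 0 at 28°C and at 0.840 FPKM at 18°C. At slc35b2, which carries the sulfate donor PAPS into the Golgi, the 2 lncRNAs had log2 ratios of 0.03 and -0.45, and at slc35f4 the lncRNA had 0.401 and 0.525 FPKM. At slc2a2, a glucose transporter gene, the lncRNA had 1.67 and 1.51 FPKM, and at slc5a12, a sodium-coupled lactate carrier gene grouped here with sugar carriers by its family, 1.65 and 1.00 FPKM.

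Of the 85 loci, 3 held several transcripts, 8 in all, and there the transcripts of 1 locus differed. At slco4a1, the 3 transcripts of MSTRG.17287 (chromosome 23, 7134315 to 7218371) share their lowest coordinate to within 1 nt and differ in their highest. MSTRG.17287.1 went from 1.83 to 5.69 FPKM, MSTRG.17287.3 from 0.763 to 1.55 FPKM (log2 ratio 0.94, and 1.57 when scaled), and MSTRG.17287.2 was listed at 0 at 28°C and at 1.44 FPKM at 18°C. Summed over the locus they came to 2.59 and 8.68 FPKM (log2 ratio 1.70). All 3 had the higher mean at 18°C, and MSTRG.17287.1 held 70.6% of the control sum and 65.5% of the cold sum.

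At slc2a12, the gene of the glucose transporter GLUT12, the 2 transcripts took opposite courses. MSTRG.17760.1, with 3 exons and 1918 nt, had 2.05 FPKM at 28°C and 1.40 FPKM at 18°C. MSTRG.17760.2, with 5 exons and 1105 nt, was listed at 0 at 28°C and at 1.96 FPKM at 18°C. The latter held 58.4% of the locus at 18°C, and the locus sum was 2.05 and 3.36 FPKM (log2 ratio 0.69). The direction of MSTRG.17760.1 turns when scaled, from -0.52 to 0.11.

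At slc44a1b, a choline transporter gene, 3 transcripts of 1 locus overlapped another lncRNA of the gene, MSTRG.5733.1, which had 1.93 and 1.22 FPKM. MSTRG.5734.1 went from 0.756 to 0.0876 FPKM (log2 ratio -2.19), MSTRG.5734.2 had 1.86 and 1.02 FPKM, and MSTRG.5734.3 had 0.304 and 0.567 FPKM, which passed 2-fold when scaled, at 1.36. The share of MSTRG.5734.1 in the locus was 25.9% at 28°C and 5.23% at 18°C, and that of MSTRG.5734.3 was 10.4% and 33.8%. The locus sum was 2.92 and 1.68 FPKM. At the related gene slc44a5a, MSTRG.12612.1 had 0.903 and 0.402 FPKM, within 2-fold when scaled, at -0.37. Because the quantification divides reads among overlapping transcripts, a share within a locus is less certain than its sum.

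**Figure D5:**
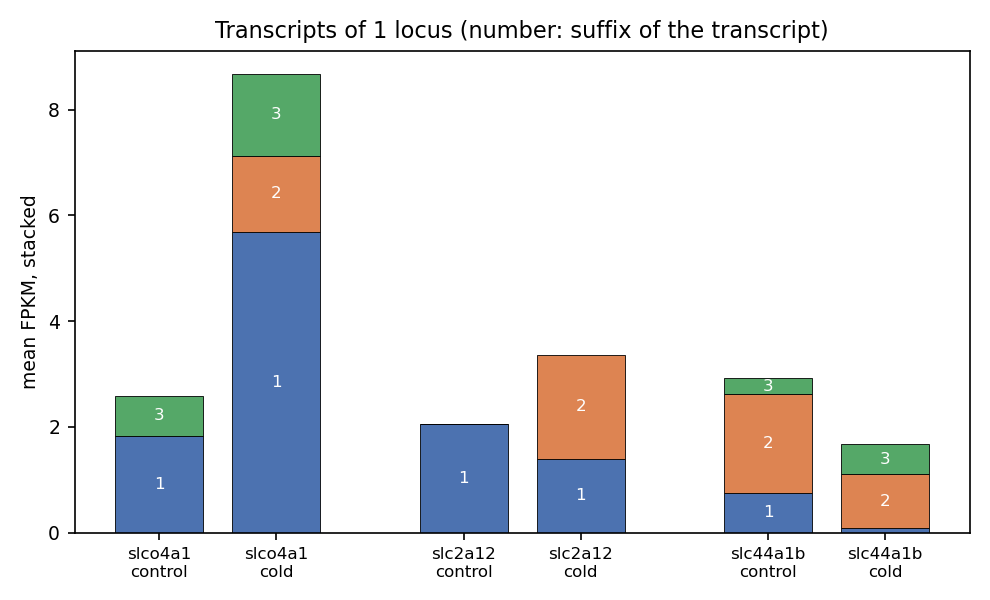
Mean FPKM (y) of the transcripts at the 3 loci with several members, stacked, for control and cold acclimated cells, with each segment marked by the last number of its transcript name where it is tall enough. The stack goes from 2.59 to 8.68 FPKM at slco4a1, from 2.05 to 3.36 FPKM at slc2a12 and from 2.92 to 1.68 FPKM at slc44a1b.

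Counting by gene, 16 of the 67 genes had 2 or more lncRNAs, 39 in all. The means of all lncRNAs at a gene were lower at 18°C for 7 of these genes, higher for 1 (abca3b), and in both directions for 8. Over all lncRNAs 66.7% had the lower mean at 18°C, and a link between neighbours was not tested. No such count was made for other genes with several lncRNAs. The 7 were abca4a, atp8b4, slc12a10.3, slc12a5a, slc6a15, slc8a2b and slc8a3. At slc12a10.3, slc12a5a, slc6a15 and slc8a3, both lncRNAs were more than 2-fold lower as deposited, and at slc8a3 both also were when scaled.

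A listed 0 does not mean absence, and 11 of the 90 had one. At 28°C 7 were listed at 0, or 7.78%, against 3.08% at other named genes, and at 18°C 4, or 4.44%, against 4.78%. Multiplying FPKM by the length in kilobases gives the fragments per 1000000 mapped fragments (FPM) behind each mean. The 7 unspliced lncRNAs with a listed 0, of 208 to 273 nt, had only 0.112 to 0.163 FPM in the group where they were seen. The spliced ones had more, with 2.36 for MSTRG.28882.1 at slc6a8, 2.17 for MSTRG.17760.2 at slc2a12, 0.821 for MSTRG.17287.2 at slco4a1 and 0.220 for MSTRG.7279.1 at slc35f2l. Over the 90, the median in the higher group was 0.598 FPM, against 0.797 at other named genes. Among the 51 that reached 0.5 FPM in a group, 8 were more than 2-fold higher and 14 more than 2-fold lower, a limit added after the values were seen. No share over all lncRNAs is given at that limit, so the counts are not set against a background.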

How the data were processed

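Total RNA libraries with ribosomal RNA removed were sequenced from 3 control and 3 cold acclimated ZF4 samples. The authors aligned the reads to GRCz10 with HISAT2 2.1.0 and assembled and quantified transcripts with StringTie 1.3.3. They set aside those matching known transcripts or known lncRNAs, and kept those without coding potential above 0.5 FPKM in at least 1 sample. The deposited FPKM values are 1 mean per group, and the deposited table also gives exon number, length, position and a nearest gene name. The libraries keep strand, but the table gives none. The authors' fold changes, p-values, FDR and calls in the table were not used.

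Members were the rows whose gene name matched the pattern in lower case. The members and lists were chosen with earlier results of these data known. Classes were assigned by symbol. Because only group means were used, the replicate test named in the plan was not run, and ratios, shares with Wilson intervals and medians with binomial order statistics were given over transcripts above 0.5 FPKM in at least 1 group. The ratio was checked on simulated data, which covers the calculation only. That check does not show how reliable ratios are at the low levels of most members, where the pseudocount and filter matter. Of the 67 gene symbols, 65 matched a RefSeq symbol or synonym. Named members were the 5 largest ratios each way, the 5 highest means, those listed at 0, those at loci with several members, leading members of each class and the one with primers. Members outside that rule were named after their values were seen. No sequence of the transcripts or promoters was used here. Positions are as deposited, counted from 1. Alternatives covered the pseudocount, filter, threshold, scaling, locus, gene name case and exon number. Computations ran in Python 3.11.15 with pandas 2.3.3, numpy 2.4.6 and scipy 1.17.1, and plots were drawn with matplotlib 3.10.9.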

Additional observations from a re-analysis of the deposited data

How the results depend on the processing

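Against 14 higher and 26 lower lncRNAs past 2-fold, a pseudocount of 1 FPKM gave 5 and 4, a filter at 1 FPKM gave 9 and 11, a threshold of 4-fold gave 8 and 12, and a limit of 0.5 fragments per 1000000 mapped, added after seeing the data, gave 8 and 14. Scaling gave 24 higher and 18 lower and turned the median log2 ratio from -0.43 to 0.20. Among lncRNAs with 1 exon, 9 were higher (16.7%), against 13.2% at other named genes with 1 exon. For the pseudocount, the filters and the 4-fold threshold no share over all lncRNAs is given. Those counts therefore do not show whether the members differ from the rest. The fewer lncRNAs left by the filters and the stricter threshold lower the counts by construction. The other alternatives, including 1 transcript per locus and gene names in either case, moved no count by over 1.5 times and no median or exon share beyond its interval. No paired analysis was possible because the table holds 1 mean per group, and for the same reason no replicate could be left out. Most members have low FPKM. The depth of each sample is not given, so no limit was derived from a listed 0.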

Other observations

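Another 6 lncRNAs carried a solute carrier name in capitals and were not counted among the 90. At SLC5A10, a sodium-coupled sugar carrier gene, 3 unspliced lncRNAs gave both directions: MSTRG.169.1 had 0.106 FPKM at 28°C and 0.533 FPKM at 18°C, MSTRG.172.1 had 0.836 and 1.89 FPKM, and MSTRG.170.1 had 0.984 and 0.143 FPKM. MSTRG.7302.1 at a copy of SLC47A1, a gene for the extrusion of organic cations, had 0.0290 and 0.762 FPKM, a log2 ratio of 2.74. MSTRG.28730.1 at a copy of SLC25A1, a mitochondrial citrate carrier gene, had 0.0966 and 0.480 FPKM. MSTRG.29818.1 at a copy of SLC5A7, a choline transporter gene, had 1.16 and 1.27 FPKM.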
